A study of Homo sapiens with 24 samples.

Results

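The proximal T cell receptor signalling module comprised 38 genes, taken by symbol from the authors' 2 comparison tables: chains of the CD3 complex, coreceptors and other surface receptors, tyrosine kinases, adaptors, phosphatases, and the CBL and UBASH3 genes that restrain the receptor. All 38 were among the 58780 genes of the TPA table and 25 were among the 13025 genes of the DMSO table. The study knocked down PRKCQ with a hairpin (shPRKCQ) in 2 lines of cutaneous T cell lymphoma, MyLa, labelled mycosis fungoides, and HuT 78, labelled Sézary syndrome, and sequenced polyadenylated RNA. The 8 groups of 3 libraries were MyLa and HuT 78 with shPRKCQ or with a non-targeting control hairpin (NTC), each under TPA at 10 ng/ml or under DMSO vehicle for 24 h. Cells for the knockdown had been in doxycycline at 1 µg/ml for at least 72 h; the labels do not say whether NTC cells received it, so an effect of the drug and an effect of the hairpin cannot be told apart. The labels call the replicates independent and give neither the number of hairpins nor the number of clones behind each line.

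When a T cell receptor binds its ligand, LCK phosphorylates the tyrosine motifs of the CD3 and zeta chains, ZAP70 docks there and phosphorylates the adaptors LAT and SLP-76, and the assembly that forms on them activates phospholipase C gamma 1. The diacylglycerol that this enzyme releases recruits protein kinase C theta, the product of PRKCQ, so that the module lies upstream of the gene that was knocked down. TPA, a phorbol ester, stands in for diacylglycerol and activates protein kinases C without the receptor. CSK, the phosphatases of PTPN6 and PTPN22, and the CBL and UBASH3 proteins act against the cascade at its first steps.

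For each treatment the authors compared the 6 libraries with shPRKCQ and the 6 with NTC, MyLa and HuT 78 combined. For every gene they deposited the log2 fold change, its p-value and the p-value after adjustment; values per library, expression levels and depth were not used here, so the spread over libraries and any difference between the lines are not shown. The tables do not name the direction of the fold change. It is read here as shPRKCQ over NTC because PRKCQ was negative in both of the authors' deposited tables, at -2.08 under TPA and -2.11 under DMSO (adjusted p = 1.67e-15 and 5.61e-14), which is 23.7% and 23.1% of the NTC level. Errors are implied standard errors, the fold change divided by the z-value that its p-value gives, and they are uncertain where the z-value is close to 0. Levels are not in the tables, so the T cell label could not be checked against marker levels. In bulk RNA, fewer cells with a transcript and less of it per cell cannot be told apart.

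No gene of the module was called in either treatment, with an adjusted p under 0.05 as the threshold. For TPA, per the authors' deposited table, 0 of the 36 members with an adjusted p passed, against 0.113% of all 19417 genes with one. The DMSO table gave 0 of 24, against 0.108% of 13007 genes. At an unadjusted p under 0.05 there were 2 members under TPA, CD6 and CD5, both with positive fold changes, among 37 tested (2.45% of 34024 genes passed that limit). Under DMSO there were 0 among 24 (3.04% of all genes passed). For CD28, the costimulatory receptor for CD80 and CD86, the authors' deposited tables have fold changes of 0.17 under TPA and -0.67 under DMSO and no p-value in either, so it enters no count.

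**Figure D1:**
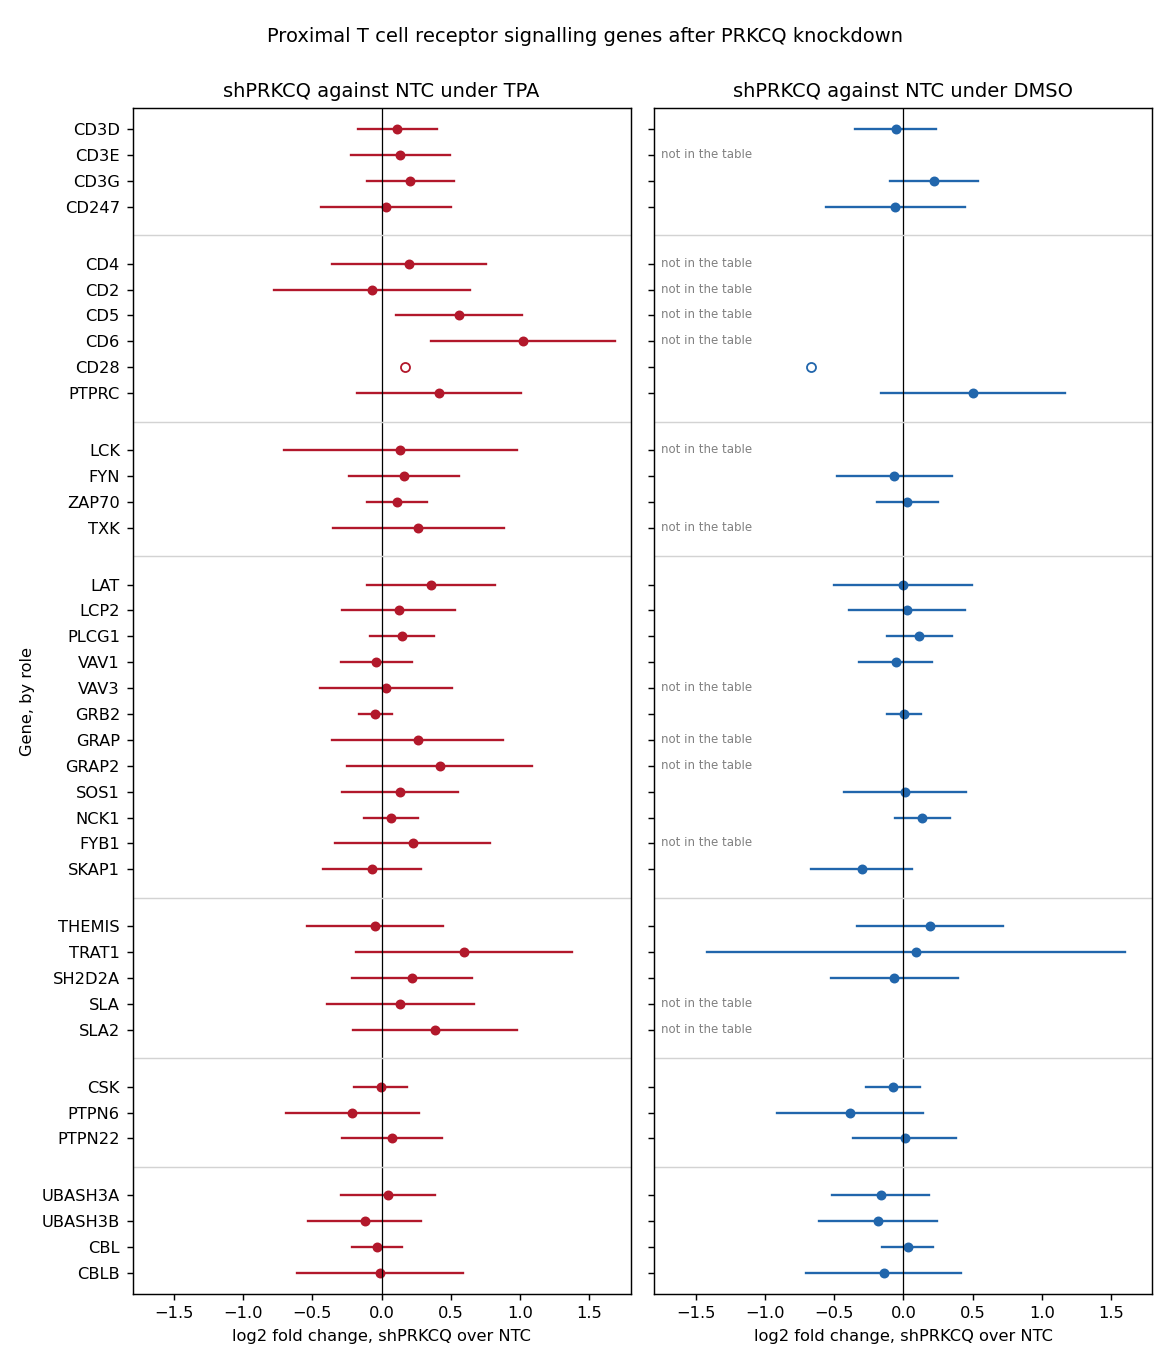
Log2 fold changes (shPRKCQ over NTC) of the 38 genes by role, under TPA on the left and under DMSO on the right. Points are the authors' deposited values and lines are 95% intervals from the implied standard errors. Open circles mark CD28, which has no p-value. The intervals of CD6 and CD5 under TPA lie above 0, and every other interval drawn includes 0.

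Fold changes under TPA lay mostly above 0 and those under DMSO on both sides of it. Under TPA, 27 of the 37 tested members had a positive fold change and 10 a negative one, with a median of 0.13 on the log2 scale and quartiles of -0.0074 and 0.22; 58.3% of all genes tested were positive. Per the authors' deposited table for TPA, 2910 of its genes share 1 value, 0.000537, just above 0. Among the 36 with an adjusted p, 26 were positive, against 53.0% of all genes with one, and their median was 0.13, against 0.011 over all such genes. Under DMSO 12 members were positive and 12 negative, with a median of 0.00089; 52.3% of all genes were positive and their median was 0.0075. The members differ in precision and 13 of them are in the TPA table alone, so the counts of the treatments cover different genes: over the 24 members tested in both, 15 were positive under TPA and the median was 0.072. Over all 13007 genes tested in both, 50.7% were positive under TPA and the median was 0.0017.

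**Figure D2:**
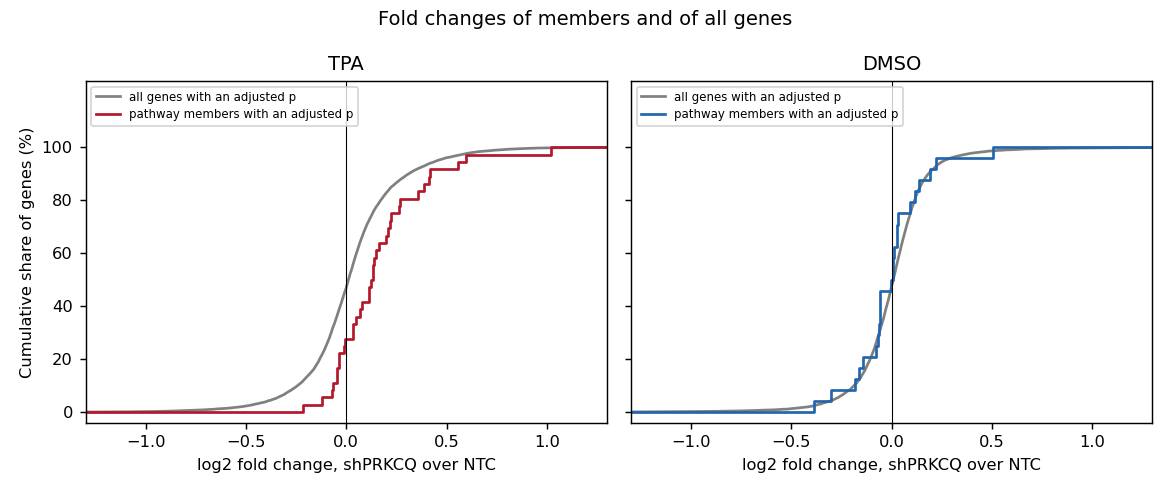
Cumulative share of genes (%) against log2 fold change (shPRKCQ over NTC), for members and for all genes with an adjusted p, under TPA on the left and under DMSO on the right. Under TPA the members' curve lies to the right of the curve of all genes over most of its length (medians 0.13 and 0.011), while under DMSO the curves run close together (medians 0.00089 and 0.0075).

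The receptor complex itself showed small values. CD3D, CD3E and CD3G encode the delta, epsilon and gamma chains that carry the signal of the antigen-binding receptor, and CD247 encodes the zeta chain with its several tyrosine motifs. Under TPA the authors' deposited table has CD3G at 0.21, CD3E at 0.13, CD3D at 0.11 and CD247 at 0.034, all 4 above 0. Under DMSO CD3G was at 0.22, CD3D at -0.056 and CD247 at -0.060 per the authors' deposited table, which lacks CD3E. CD3D had a 95% interval from -0.17 to 0.40 under TPA and from -0.35 to 0.24 under DMSO, so a change of 0.5 on the log2 scale in either direction lay outside both. CD3E, CD3D and CD3G stand next to each other on chromosome 11 with no other protein-coding gene between them, CD3D and CD3G facing away from each other across 1599 bases (GENCODE release 29, GRCh38).

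Among the surface receptors was the largest fold change of the module under TPA, that of CD6. CD6, a scavenger receptor family member that binds CD166 and docks signalling adaptors at the contact with the presenting cell, was at 1.02 under TPA per the authors' deposited table (95% interval 0.35 to 1.69, unadjusted p = 0.00272, adjusted p = 0.441), or 2.03 times the NTC level. CD5, its paralog and a receptor known to dampen T cell receptor signals, was at 0.56 per the authors' deposited table for TPA (95% interval 0.10 to 1.02, unadjusted p = 0.0167, adjusted p = 0.978). By p-value CD6 ranked 123 and CD5 344 among the 34024 genes tested under TPA. Neither is in the DMSO table, so whether these values depend on TPA could not be examined. PTPRC, the CD45 phosphatase that keeps LCK ready to act by removing its inhibitory phosphate, was at 0.41 under TPA and 0.50 under DMSO per the authors' deposited tables (unadjusted p = 0.171 and 0.139). For CD4, the coreceptor that brings LCK to the receptor, the authors' deposited table for TPA has 0.20, and for CD2, the adhesion receptor for CD58, it has -0.071; their 95% intervals ran from -0.36 to 0.76 and from -0.78 to 0.64.

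CD6 and CD5 are also neighbours in the genome. CD6 (ENSG00000013725.14) lies on chromosome 11 at 60971680 to 61020377 and CD5 (ENSG00000110448.10) at 61102395 to 61127852, both on the plus strand of GRCh38 (GENCODE release 29), 82.0 kb apart with no protein-coding gene between them. Within 300 kb on either side of CD6, 9 other protein-coding genes had an adjusted p under TPA. Of these, 3 were positive, the median fold change was -0.037 and 0 had an unadjusted p under 0.05, per the authors' deposited table. The nearest of these on either side were TMEM132A at -0.63 and VPS37C at 0.025 per the authors' deposited table (unadjusted p = 0.106 and 0.812).

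**Figure D3:**
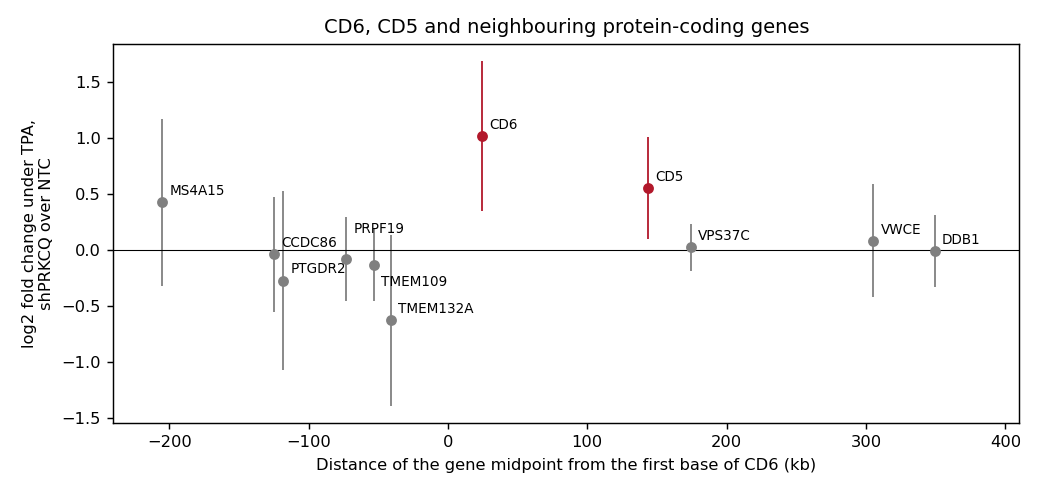
Log2 fold change under TPA (shPRKCQ over NTC) of CD6, CD5 and 9 neighbouring protein-coding genes with an adjusted p, against the distance of each gene's midpoint from the first base of CD6 in kb. Points are the authors' deposited values and bars 95% intervals from the implied standard errors. CD6 at 1.02 and CD5 at 0.56 are the 2 genes whose bars lie above 0.

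The tyrosine kinases gave 4 positive values of 4 under TPA, none past the threshold. In the authors' deposited table for TPA, ZAP70, the kinase that binds the phosphorylated receptor chains, was at 0.11, FYN, a Src family kinase, at 0.17, LCK at 0.14 and TXK, a Tec family kinase of T cells, at 0.27. ZAP70 was measured closely: its 95% interval ran from -0.10 to 0.33 under TPA and from -0.19 to 0.25 under DMSO, where its fold change was 0.028 per the authors' deposited table. LCK had the widest interval of the members under TPA, from -0.71 to 0.98, and is not in the DMSO table. FYN under DMSO was at -0.065 per the authors' deposited table.

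Among the 12 adaptors and effectors that assemble on LAT, 9 were positive under TPA with a median of 0.13, and 5 of the 8 tested under DMSO were positive with a median of 0.0079. GRAP2, the adaptor Gads that links SLP-76 to LAT, had the largest of these values per the authors' deposited table for TPA, at 0.42 (95% interval -0.25 to 1.09, unadjusted p = 0.219). LAT, the membrane scaffold that ZAP70 phosphorylates, was at 0.36 under TPA and -0.0028 under DMSO per the authors' deposited tables (unadjusted p = 0.130 and 0.991). LCP2, which encodes SLP-76, was at 0.12 and 0.025, and PLCG1, which encodes the phospholipase, at 0.15 and 0.11, under TPA and DMSO per the authors' deposited tables.

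Apart from SKAP1 under DMSO, the remaining adaptors stayed near 0 or were imprecise. GRB2, the adaptor that brings the Ras exchange factor SOS1 to LAT, had the smallest error of the module, with -0.047 ± 0.061 under TPA and 0.0046 ± 0.063 under DMSO (authors' deposited tables, implied SE). SOS1 was at 0.13 and 0.011 and NCK1, an adaptor to the actin cytoskeleton, at 0.067 and 0.14 under TPA and DMSO per the authors' deposited tables. VAV1, the exchange factor for Rac in T cells, was at -0.037 and -0.056 per the authors' deposited tables, and its relative VAV3 at 0.032 under TPA. SKAP1, which with the FYB1 product links the receptor to integrin activation, was at -0.07 under TPA and -0.30 under DMSO per the authors' deposited tables (unadjusted p = 0.705 and 0.107); FYB1 was at 0.22 under TPA. GRAP was at 0.26 under TPA per the authors' deposited table, a value that is uncertain because GRAP has a near-identical copy in the genome, GRAPL, with which reads can be shared.

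Promoter sequences of the members were searched for TGANTCA, a loose form of the AP-1 site that allows any base in the middle. The phorbol ester response element, with C or G there, is part of it. The sequences of LAT and GRAP2 with a match are shown, since both genes were named above for their values under TPA. RefSeq promoter windows (GRCh38.p14) were found for 27 of the 38 members, 45 windows in all. The 11 members without one include CD6, CD5, SKAP1 and SLA2, which are named for their values. In the 250 bases before each start, read on both strands, the loose form occurs in 3 of the 45 windows (6.67%). It occurs in 6.57% of 35116 windows of all genes, so it is as frequent as elsewhere. Genes with several starts count several times. LAT and GRAP2 each have a second window without the site, and the windows of TRAT1, PTPRC and PTPN6, also named for their values, hold none. The third window with a match, an internal start of VAV3, overlaps an exon of that gene and is not printed. The printed windows run 5′ to 3′ on the plus strand, with the match in capitals; the window of GRAP2 is that of an internal start of the gene.
LAT (chr16:28984553-28984802): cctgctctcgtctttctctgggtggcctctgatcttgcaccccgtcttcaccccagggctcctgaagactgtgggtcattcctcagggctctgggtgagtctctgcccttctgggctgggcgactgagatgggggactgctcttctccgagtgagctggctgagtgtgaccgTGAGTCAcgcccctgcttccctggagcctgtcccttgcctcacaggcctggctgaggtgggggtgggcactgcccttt
GRAP2 (chr22:39946567-39946816): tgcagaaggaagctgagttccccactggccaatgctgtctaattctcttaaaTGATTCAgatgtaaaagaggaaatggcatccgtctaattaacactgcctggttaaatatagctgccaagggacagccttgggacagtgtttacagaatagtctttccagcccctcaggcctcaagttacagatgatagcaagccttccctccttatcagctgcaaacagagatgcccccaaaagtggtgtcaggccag
The match begins 78 bases before the start in LAT and 198 bases before it in GRAP2. It has G in the middle in LAT, as the phorbol ester response element allows, and T in GRAP2, which that element does not. It is a match of letters and says nothing on whether the site is bound in these cells.

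Of the 5 regulators of T cells in the module, 4 were positive under TPA. TRAT1, the transmembrane adaptor TRIM of the receptor complex, was at 0.59 under TPA and 0.090 under DMSO per the authors' deposited tables, with 95% intervals from -0.19 to 1.37 and from -1.42 to 1.60 (unadjusted p = 0.135 and 0.907). SLA2, an adaptor that promotes removal of the receptor from the surface, was at 0.39 per the authors' deposited table for TPA (unadjusted p = 0.201). Its relative SLA was at 0.14 there with no adjusted p. SH2D2A, the adaptor TSAd that binds LCK, was at 0.22 and -0.067, and THEMIS, a regulator of receptor signals in thymocyte selection, at -0.047 and 0.19, under TPA and DMSO per the authors' deposited tables.

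The last 7 genes were CSK, phosphatases, and the CBL and UBASH3 genes. Of CSK, PTPN6 and PTPN22, 1 was positive under TPA and 1 under DMSO. Likewise 1 of the 4 CBL and UBASH3 genes was positive under either treatment, with medians of -0.024 under TPA and -0.15 under DMSO. Other genes known to restrain the receptor, CD5, SLA and SLA2, stand in other groups above, with positive values under TPA.

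None of these genes had an unadjusted p under 0.05. PTPN6, the phosphatase SHP-1, was at -0.21 under TPA and -0.39 under DMSO per the authors' deposited tables (unadjusted p = 0.384 and 0.153). CSK, the kinase that places the inhibitory phosphate on LCK, was at -0.0074 and -0.076, and PTPN22, the phosphatase that works with it, at 0.078 and 0.0075, under TPA and DMSO per the authors' deposited tables. CBL and CBLB, ubiquitin ligases that mark receptor components for removal, were at -0.035 and -0.013 under TPA, and at 0.032 and -0.14 under DMSO, per the authors' deposited tables. UBASH3A and UBASH3B, which encode the Sts suppressors of receptor signalling, were at 0.048 and -0.12 under TPA, and at -0.17 and -0.18 under DMSO, per the authors' deposited tables. The 95% interval of CBL, from -0.22 to 0.15 under TPA and from -0.15 to 0.22 under DMSO, was among the narrowest.

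The knockdown effects under TPA and under DMSO were then compared gene by gene over the 24 members with a p-value in both tables. The fold change was higher under TPA in 18 of the 24 and lower in 6, with a median difference (TPA minus DMSO) of 0.090 on the log2 scale; over all 13007 genes 47.5% were higher under TPA and the median difference was -0.0084. By the test of the difference, which divides it by the combined implied standard errors, 0 of 24 members passed after Benjamini-Hochberg adjustment and 0 had an unadjusted p under 0.05 (0.0% and 0.438% of all genes). The smallest p among the members was that of LAT, with a difference of 0.36 (95% interval -0.32 to 1.04, unadjusted p = 0.298, adjusted p = 1.00). TRAT1 had the largest difference, 0.50, with a 95% interval from -1.20 to 2.21. At the other end THEMIS had -0.24, with a 95% interval from -0.96 to 0.48. The sign was shared in 15 of the 24, 9 positive and 6 negative in both treatments, which is 62.5% against 64.2% over all genes. The tables share no library, although cultures of both treatments could be related. Only 0.438% of all genes had an unadjusted p under 0.05 for the difference, so the test was conservative. Its 0 calls do not show equal effects.

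**Figure D4:**
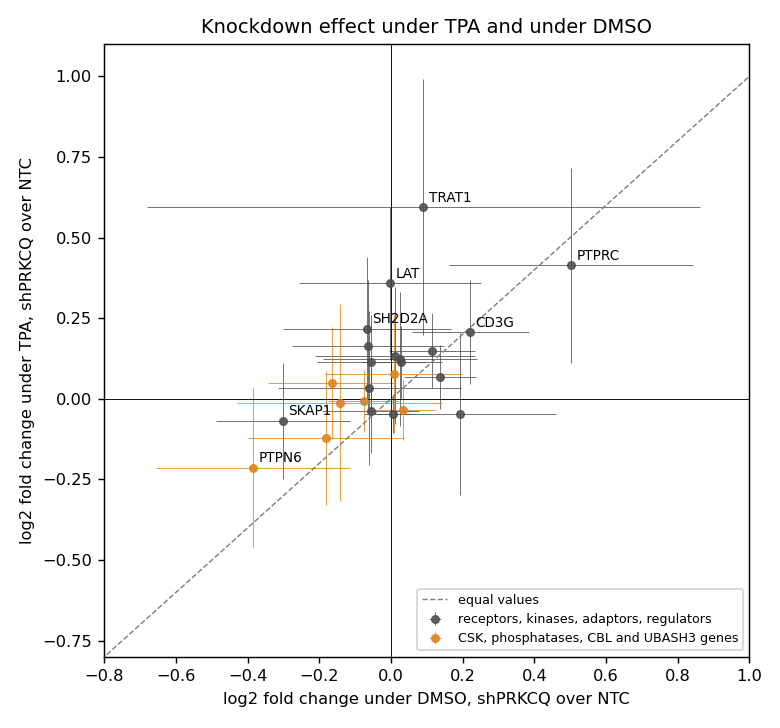
Log2 fold change (shPRKCQ over NTC) under TPA against that under DMSO for the 24 members with a p-value in both tables. Bars are 1 implied standard error, orange points are CSK, PTPN6, PTPN22 and the CBL and UBASH3 genes, and the dashed line marks equal values. Of the points, 18 lie above the line and 6 below it, with bars that mostly cross it.

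Precision limits how far the absence of calls can be read. The intervals would be too narrow if the deposited fold changes are shrunken, as the shared values of the TPA table leave possible. They would be too wide if the deposited tests are conservative. The z-values had a robust SD of 0.84 under TPA and 0.75 under DMSO, less than a standard normal gives. With p-values rescaled by it, 113 genes passed under TPA and 109 under DMSO, against 22 and 14 as deposited, and 0 members in either. Taken as deposited, under TPA the 95% intervals of 32 of 37 members excluded both a doubling and a halving, and those of CD6, CD5, PTPRC, GRAP2 and TRAT1 reached a doubling. Under DMSO those of 22 of 24 excluded both, the exceptions being PTPRC and TRAT1. Intervals within 0.5 on the log2 scale were had for 12 members under each treatment, among them CD3D, ZAP70, PLCG1, VAV1, GRB2, NCK1, CSK, PTPN22 and CBL under both. The 13 members that the DMSO table lacks had larger errors under TPA, a median implied SE of 0.30 against 0.19 for the 24 in both tables. Of the 13, 12 were positive, where 53.0% of all genes with an adjusted p under TPA were. Of all genes with an adjusted p under TPA 33.0% are likewise not in the DMSO table, as are 12 of the 36 members with one.

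The wider receptor pathway was examined in a list of 48 further genes. Under TPA 29 of the 47 tested were positive, with a median of 0.042, and under DMSO 16 of 42, with a median of -0.044. Over all genes tested, 58.3% were positive under TPA and 52.3% under DMSO. Of all genes with an adjusted p under TPA, as 46 of the 47 have, 53.0% were positive. Per the authors' deposited tables, none passed the adjusted threshold, with 0 of 46 under TPA and 0 of 42 under DMSO. Over all genes with an adjusted p, 0.113% and 0.108% passed. An unadjusted p under 0.05 was had by 2.45% and 3.04% of all genes tested, and in the list by 1 gene under TPA and 0 under DMSO. That gene was CARMIL2, a scaffold of CD28 costimulation, at 0.20 under TPA and 0.11 under DMSO per the authors' deposited tables (unadjusted p = 0.00705 and 0.171, adjusted p = 0.677 under TPA). All 8 receptor and costimulation genes of the list were positive under TPA, with a median of 0.17, and 3 of the 6 tested were under DMSO. Under TPA the authors' deposited table has TRAC, the constant region of the receptor alpha chain, at 0.19, and TRBC1 and TRBC2, those of the beta chain, at 0.37 and 0.20; the last 2 are near-identical, so their reads can be split between them. Of the further adaptors 9 of 16 were positive under TPA and 5 of 14 under DMSO, and of the further phosphatases and ligases 3 of 8 under each. Over the 42 further genes tested in both tables, the fold change was higher under TPA in 29 and lower in 13. As stated above for the members, 47.5% of all genes were higher under TPA. The median difference (TPA minus DMSO) of the 42 was 0.034.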

How the data were processed

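RNA of 24 libraries, 3 in each of 8 groups of line, hairpin and treatment, was compared by the authors in 2 tables, each combining MyLa and HuT 78. Per the labels' protocols, libraries were poly(A)-selected and strand-specific. According to the submitters' processing notes, STAR 2.5.3a, RSEM 1.3.0, DESeq2 1.18.1 and GRCh38 were used, with no roles stated; the model, its covariates, filters and any shrinkage were not given in the sources used here. The authors deposited, per the file headers, 1 log2 fold change for each gene with its p-value and the adjusted p. The adjusted p-values differed from a Benjamini-Hochberg adjustment of the deposited p-values by a relative 0.00451 at most under TPA and 0.00235 under DMSO. Under TPA, 2910 genes share a log2 fold change of 0.000537, so these may be shrunken values, and the scales of the tables may differ.

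Members were matched by symbol, and identifiers to GENCODE release 29 for coordinates. From each p-value and the sign of its fold change a z-value was computed, and from it the implied standard error and a 95% interval. For the treatments, the difference of fold changes (TPA minus DMSO) was divided by the combined standard errors and tested two-sided. It was adjusted over all genes in both tables, taking the tables as independent. This step was tested on simulated data with independent errors of exactly the implied size. The deposited values depart from that setting, as 0.438% of all genes had an unadjusted p under 0.05 for the difference. The simulation therefore checks the computation and not how the test behaves on these data. Named with p-values are members with an unadjusted p under 0.05 or an absolute log2 fold change of at least 0.3 in either table; other pathway genes and markers are named where their unadjusted p is under 0.05, and the rest were chosen after their values were seen. The members and lists were chosen with earlier results of these data known. Depth is unknown, and no test on libraries was run. Python 3.11.15, numpy 2.4.6, pandas 2.3.3 and scipy 1.17.1 were used.

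Results for 2 groups of other pathway genes are not reported here.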

Additional observations from a re-analysis of the deposited data

How the results depend on the processing

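All 5 counts of calls (members and other pathway genes under TPA and under DMSO, and members whose effect differed between the treatments) were 0 and stayed 0 under every alternative run: thresholds of 0.1 and, for calls within a table, 0.01, adjustment without the filter on low genes, over the genes of both tables or without histone and non-polyadenylated RNAs, a minimum fold change, p-values rescaled for their narrow spread and, for the difference, z-values in place of fold changes. The threshold of 0.01 and the minimum fold change are stricter than the main setting, so they could not raise a count of 0. CD6 under TPA came nearest, with adjusted p-values from 0.0579 (rescaled) to 0.754 (without the filter). The members' median ran from 0.072 to 0.13 under TPA and from -0.0066 to 0.00089 under DMSO. With the mean in place of the median the values were 0.16 under TPA and -0.0082 under DMSO. No paired analysis was possible because values per library were not at hand; for the same reason leaving out replicates, other normalizations and other tools were not run, and what depth limits could not be assessed.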

Other observations

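Markers of other cell types were examined beside the T cell genes. T cell markers were positive in 8 of 9 cases under TPA, with a median log2 fold change of 0.20, and in 3 of 5 under DMSO. All 9 were already counted above, so they add no further values. CD3D, CD3E, CD3G, CD2 and CD5 are members, and CD7, TRAC, TRBC1 and TRBC2 are among the further pathway genes. Of all genes tested under TPA, 58.3% were positive, and of those with an adjusted p, as all 9 have, 53.0%. CD7 was at 0.69 under TPA per the authors' deposited table (unadjusted p = 0.0647). Of 6 B cell markers 4 were positive under TPA, with a median of 0.11, and CD79B, a chain of the B cell receptor complex, was at -1.10 per the authors' deposited table (unadjusted p = 0.000773, adjusted p = 0.217). Myeloid markers were positive in 5 of 6 cases and markers of natural killer cells in 3 of 4, with medians of 0.094 and 0.43 under TPA. Of 6 epithelial or stromal markers tested 3 were positive, and KRT5 was at 0.77 per the authors' deposited table (unadjusted p = 0.0437). Under DMSO 1 B cell, 1 myeloid and 1 epithelial or stromal marker were tested, and all 3 were positive. Levels are not in the tables, so whether these markers were near 0 is not known, and their part in the values of the module was not tested.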
